A study of Caenorhabditis elegans with 2 samples.

Results

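F08G2.13, ZK265.11, T19C4.16, K08B5.8 and F44E5.16 are 5 noncoding RNA genes that the RefSeq annotation of Caenorhabditis elegans gives no further class. They were selected on measured values: each had a peak of tagged SNPC-4 whose summit lay within 500 bp of its annotated 5′ end. Other genes met this criterion too, and the 5 were picked with their ranks, summit positions and likeness to snRNA genes known, so these values are a description. They are 5 of 7755 noncoding RNA genes with no further class and of 46890 nuclear genes in all. The peaks came from chromatin immunoprecipitation with sequencing (ChIP-seq) of whole L3 larvae of mixed sex. The strain was OP179, whose genotype is unc-119(ed3) III; wgIs179, and the transgene expresses SNPC-4 fused to eGFP. The labels give 2 biological replicates of this 1 group, and the study holds no second condition. All cell types of the larva were pooled, so the cells in which a gene was bound are not known. F08G2.13 (chrII:13834449-13834523, minus strand, 75 bp), K08B5.8 (chrX:16564730-16564828, plus strand, 99 bp) and F44E5.16 (chrII:11756785-11756919, plus strand, 135 bp) overlapped no other gene. ZK265.11 (chrI:8245547-8245622, minus strand, 76 bp) lay wholly in the last exon of 1 transcript of ceh-8, a homeobox gene, on the same strand and outside the coding sequence. T19C4.16 (chrV:11176926-11177134, plus strand, 209 bp) lay in the first intron of 1 transcript of gpa-1, a G protein alpha subunit gene on the opposite strand. It also contained T19C4.11, a 178-bp noncoding RNA gene on its own strand that starts 17 bp further in. Positions are on ce11, the same assembly as WBcel235.

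SNAPc, the complex to which SNPC-4 belongs, recognises promoters of small nuclear RNA (snRNA) genes. SNAPc binds the proximal sequence element, a conserved stretch a short way upstream of the transcription start. In many animals such promoters serve RNA polymerase II or RNA polymerase III, and a TATA box downstream of the element goes with RNA polymerase III. Spliceosomal snRNAs, spliced leader RNAs of nematodes and other short noncoding RNAs are made from promoters of this kind. The C/D and H/ACA small nucleolar RNAs (snoRNAs) guide the modification of other RNAs.

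The upstream sequence is shown because an element found at snRNA genes was also present upstream of 4 of the 5 genes. The 22-bp element was fitted to the 33 snRNA genes with a peak, in the 81 bp from 100 to 20 bp upstream, and its most informative part was GCGGAACCCGC. The 100 bp upstream of 4 of the 5 genes and of 2 snRNA genes follow, 5′ to 3′ and ending at the base before the gene. The capitals mark the element, or TATATA in F08G2.13, which had no match. The sequence of ZK265.11 is not shown. The bases are those of RefSeq's WBcel235.
F08G2.13: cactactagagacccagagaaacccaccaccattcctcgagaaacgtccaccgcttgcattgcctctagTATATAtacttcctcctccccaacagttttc
T19C4.16: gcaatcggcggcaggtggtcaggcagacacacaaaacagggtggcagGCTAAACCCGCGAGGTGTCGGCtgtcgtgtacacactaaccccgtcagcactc
K08B5.8: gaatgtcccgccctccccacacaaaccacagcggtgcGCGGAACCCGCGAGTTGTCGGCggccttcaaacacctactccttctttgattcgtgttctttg
F44E5.16: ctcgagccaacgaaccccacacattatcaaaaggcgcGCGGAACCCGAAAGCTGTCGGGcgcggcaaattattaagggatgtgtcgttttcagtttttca
F07C6.5 (snRNA): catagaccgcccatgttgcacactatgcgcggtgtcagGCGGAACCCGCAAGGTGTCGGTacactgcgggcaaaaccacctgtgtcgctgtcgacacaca
W05B2.8 (snRNA): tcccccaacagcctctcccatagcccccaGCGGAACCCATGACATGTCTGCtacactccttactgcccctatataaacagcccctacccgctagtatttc
The windows shown are chrII:13834524-13834623 (minus strand), chrV:11176826-11176925, chrX:16564630-16564729, chrII:11756685-11756784, chrIV:12795484-12795583 and chrIII:10989579-10989678 (plus strand for these). In T19C4.16, K08B5.8, F44E5.16 and F07C6.5 the capitals hold AACCCG and, after 5 more bases, TGTCGG. W05B2.8 departs from both words and has TATATA nearer to its 5′ end.

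All 5 genes had a peak in the thresholded list, which the choice fixed. The list held 2672 peaks with signal values from 29.1 to 2235 in an arbitrary unit, and its −log10 q-value was 3.88 throughout. F08G2.13 had the third strongest peak of the list, with a signal value of 1879 and a width of 410 bp. ZK265.11 ranked 41st by a signal value of 560, with a width of 298 bp. T19C4.16 stood at rank 84 with a signal value of 255 and a width of 220 bp. K08B5.8 stood at rank 304 with a signal value of 104 and a width of 147 bp. F44E5.16 was the weakest at rank 600, with a signal value of 72.8 and a width of 154 bp. The 5 signal values thus spanned more than an order of magnitude, and the weakest still lay above the list's median of 47.2. The list ends where the signal value is 29.07, and the next pooled region, at rank 2673, had the same value to that precision. Peaks lay within 500 bp of 7.70% of the 8054 other noncoding RNA genes (620 genes, 95% Clopper-Pearson interval 7.13 to 8.30). This class takes in the 5 genes together with long, antisense and signal recognition particle RNA genes. For snRNA genes the share was 33.3% (33 of 99, interval 24.2 to 43.5). No count of these 5 genes can be read against those shares, since a peak was the ground for choosing them. Depth is unknown because the lists give no read counts, so no interval covers the sequencing of a peak.

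Set among the 33 snRNA genes with a peak, the 5 genes were spread over most of the range. Only 1 snRNA gene, W05B2.8 (rank 2, signal value 2125), had a stronger peak than F08G2.13. There were 9 snRNA genes above ZK265.11, 12 above T19C4.16, 17 above K08B5.8 and 22 above F44E5.16. The median rank was 84 for the 5 genes and 265 for the 33 snRNA genes, and nothing is read from this difference because the choice of the 5 rested on their peaks.

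Each replicate had a region at each of the 5 genes. The ranks in the replicate 1 list, which has 30000 regions, were 4 for F08G2.13, 46 for ZK265.11, 98 for T19C4.16, 418 for K08B5.8 and 502 for F44E5.16. The ranks in the replicate 2 list of the same size were 4, 37, 80, 235 and 885 in that order of genes. The order of the 5 genes was the same in both lists. The larger rank was between 1 and 1.78 times the smaller for the 5 genes, with a median of 1.24. For the 33 snRNA genes this ratio ran from 1 to 14.9 with a median of 1.61. The snRNA peaks reached down to rank 2659 of the thresholded list, and those of the 5 genes to rank 600. The highest ratio was that of ZK897.3 (rank 2366, with replicate ranks 15498 and 1038). Nothing is read from the lower ratios of the 5 genes, which were picked with their ranks known. F44E5.16 stood higher in replicate 1 and K08B5.8 higher in replicate 2, so the gap between these genes was small in replicate 1 and wide in replicate 2.

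**Figure D1:**
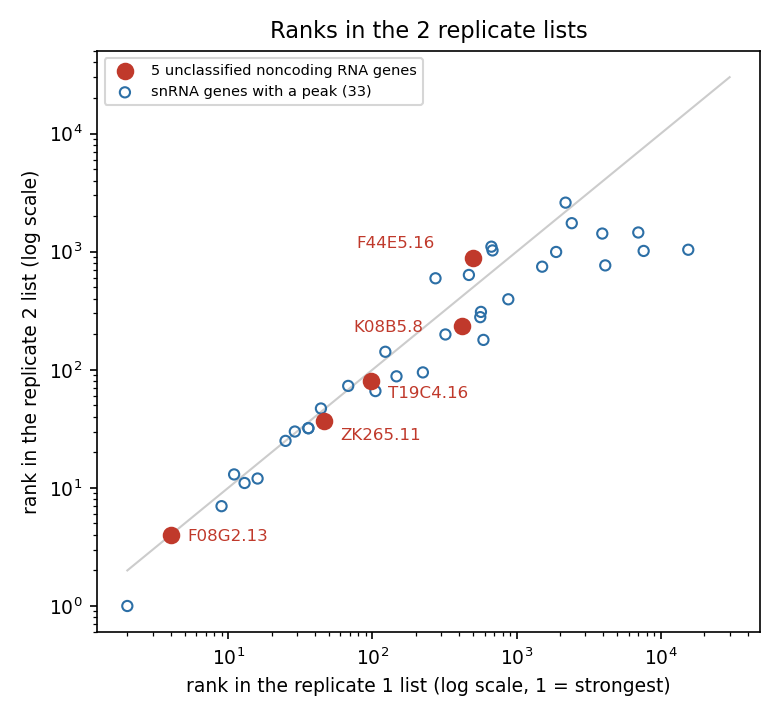
Rank of each gene's region in the replicate 1 list (x axis) and in the replicate 2 list (y axis), both on log scales with 1 as the strongest. Red points are the 5 unclassified genes, blue circles the 33 snRNA genes with a peak, and the line marks equal ranks; the 5 genes lie close to it, from ranks 4 and 4 (F08G2.13) to 502 and 885 (F44E5.16).

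The summits lay upstream of all 5 annotated 5′ ends. They were at -26 bp for F08G2.13, -49 bp for ZK265.11, -77 bp for T19C4.16, -44 bp for K08B5.8 and -50 bp for F44E5.16. Summits at the 33 snRNA genes had a median position of -54 bp, and the middle 50% of them lay from -60 to -49 bp. Between 80 and 30 bp upstream lay 4 of the 5 summits and 30 of the 33 at snRNA genes (90.9%). F08G2.13 was the exception among the 5, 4 bp nearer to its gene than that interval. Of all 604 unclassified genes with a peak, 48 had their summit in the interval (7.95%). The 5 genes were picked with their summit positions known, so their likeness in position is no finding. The position of T19C4.16 depends on which annotated start is taken, as the same summit was at -94 bp from T19C4.11.

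The summits were also placed by each replicate alone. F08G2.13 had -27 bp in both replicates, and F44E5.16 had -50 and -49 bp. T19C4.16 had -78 bp in replicate 1 and -67 bp in replicate 2. ZK265.11 had -47 and -25 bp, and K08B5.8 had -23 and -47 bp. Those 2 genes moved by 22 and 24 bp between replicates and T19C4.16 by 11 bp, each beyond the median of 9 bp at snRNA genes. The differences at snRNA genes ran from 0 to 358 bp. All 10 positions at the 5 genes remained upstream of the gene.

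**Figure D2:**
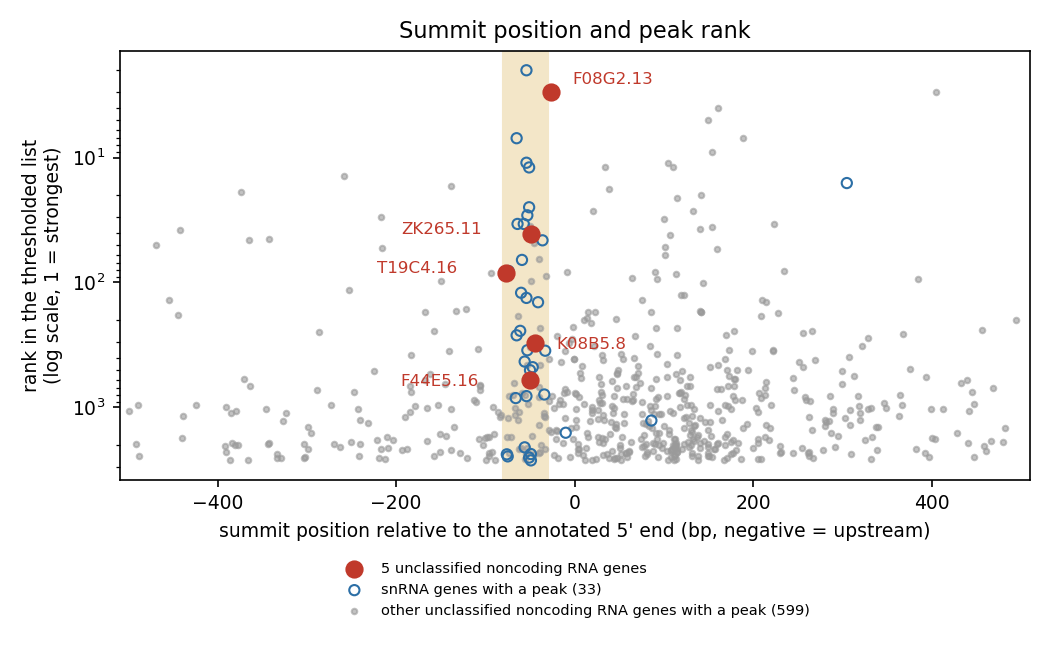
Summit position relative to the annotated 5′ end (x axis, bp, negative is upstream) and rank in the thresholded list (y axis, log scale with the strongest at the top) for the 5 genes (red), 33 snRNA genes (blue circles) and 599 other noncoding RNA genes of no further class (grey). The shaded interval is 80 to 30 bp upstream, where 4 red points and 30 blue circles lie, while the grey points spread over the whole window.

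The 5 strongest peaks at other unclassified genes included that of F08G2.13 itself, which lay in the window of F08G2.12 at +405 bp. The next were in the windows of Y75B8A.49 (rank 4), R12E2.18 (rank 5), F38E11.24 (rank 7) and C17C3.23 (rank 9). Each of those windows also held the 5′ end of a spliced leader RNA gene (sls-2.8, sls-2.4 or sls-2.2) or of the snRNA gene F38E11.10, and the summits lay 149 to 189 bp downstream of the unclassified gene's 5′ end. With only the outermost annotated 5′ end of each gene counted, no small RNA gene of a named class and no protein-coding gene started within 500 bp of these 5 genes' summits. However, a shorter transcript of gpa-1, on the minus strand, starts at chrV:11176685, within 500 bp of the T19C4.16 summit at chrV:11176849. By outermost starts, the same held for 246 of all 604 unclassified genes with a peak. For 27 of these 246 the summit was 80 to 30 bp upstream. Besides 4 of the 5 genes, 23 others met both conditions, with ranks from 48 to 2588 and a median of 1210. The 3 strongest of the 23 were W01D2.8 (rank 48), C18C4.17 (rank 65) and CD4.18 (rank 98), which are described with F08G2.13 below.

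The element score measures how far a window favours the fitted element over the base composition of upstream sequence, in bits. A match was a score that 1% of the 19971 windows of protein-coding genes reached, which was 6.45 bits. K08B5.8 scored 38.27 bits, more than any of the 33 snRNA genes and any protein-coding window. The 5 genes were scored with the fit to all 33 snRNA genes, and each snRNA gene with a fit that left it out. Their order against the snRNA genes therefore does not rest on equal scoring. T19C4.16 scored 33.12, ZK265.11 scored 32.47 and F44E5.16 scored 29.84 bits, each reached by 2 protein-coding windows. F08G2.13 scored 2.33 bits, which lay above 96.3% of the protein-coding windows and below the score needed. A match was present in 4 of the 5 genes and in 31 of the 33 snRNA genes with a peak (93.9%), each snRNA gene scored with itself left out of the fit. It was present in 1.89% of the other noncoding RNA genes (152 of 8050 with a full window) and in 4.52% of those with a peak (28 of 620). Of the 66 snRNA genes without a peak, 42 had a match (63.6%). The element was not confined to snRNA genes. Of the 17 spliced leader RNA genes with a peak, 12 had a match (70.6%). The median of the 17 was 26.32 bits, against 26.87 bits in snRNA genes with a peak, and their highest score was 40.11 bits, above that of K08B5.8. Genes that the annotation classes as snoRNA or microRNA were not scored, so their share with the element is not known. Among the 33 snRNA genes with a peak, the highest scores were those of F07C6.5 (37.15 bits), sup-39 and mir-1831 (35.27 each), and these last 2 shared 1 peak. The annotation classes mir-1831 as an snRNA despite its name. Genes with equal scores, such as these 2 or F08H9.10 and T08G5.11 (34.52 bits each), stayed in each other's fit. Each fit with a gene left out also began from sites found with all 33 genes, so the 93.9% is not an independent rate. The lowest of these 33 were those of F54C8.10 (9.23), Y57G11C.35 (4.18) and M163.13 (0.38), of which Y57G11C.35 and M163.13 had no match.

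**Figure D3:**
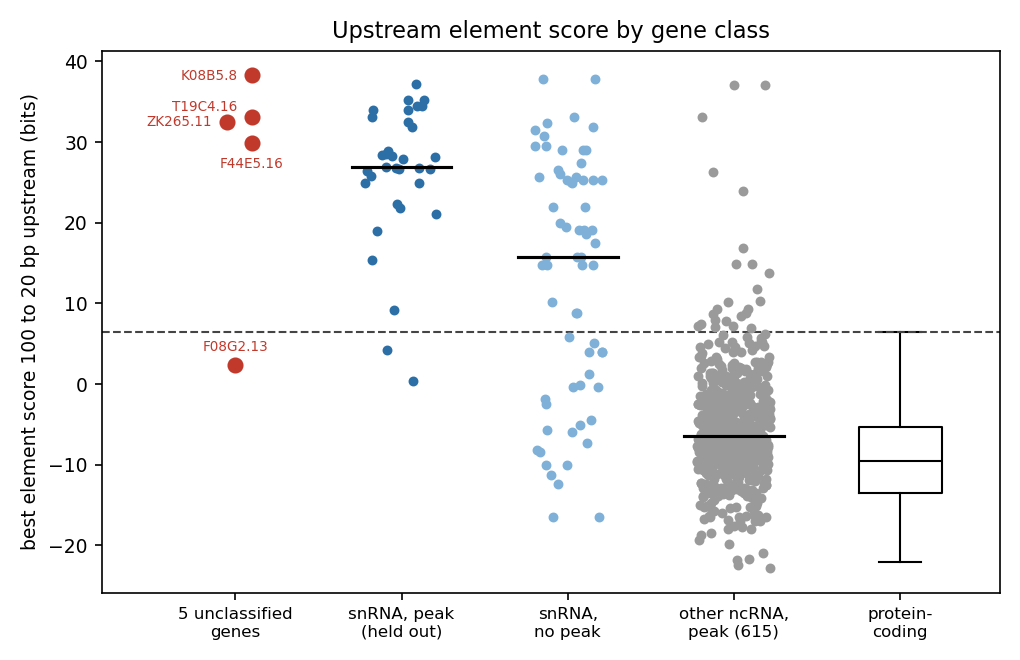
Best score of the 22-bp element 100 to 20 bp upstream (y axis, bits) for the 5 genes, 33 snRNA genes with a peak (each left out of its own fit), 66 snRNA genes without a peak, 615 other noncoding RNA genes with a peak and protein-coding genes. Points are genes, thick lines are medians, the box shows the median and quartiles with whiskers at the 1st and 99th percentiles, and the dashed line is the score needed (6.45); 4 of the 5 genes lie near the top and F08G2.13 (2.33) below the line.

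The element also stood at the distance found in snRNA genes. It began at -63 bp in K08B5.8 and F44E5.16, at -62 bp in ZK265.11 and at -53 bp in T19C4.16. In the 24 matching snRNA genes without TATAA it began between -66 and -59 bp, with a median of -62 bp. In the 7 matching snRNA genes with TATAA 45 to 15 bp upstream it began at -71 or -70 bp. T19C4.16 thus stood outside the first range by its own start, and its element was 70 bp upstream of the start of T19C4.11. The summit lay within the element in ZK265.11, K08B5.8 and F44E5.16, and in 21 of the 31 matching snRNA genes (67.7%). In the replicate lists, F44E5.16 alone had its summit within the element both times, as ZK265.11 in replicate 2 (-25 bp) and K08B5.8 in replicate 1 (-23 bp) had it nearer to the gene. At T19C4.16 the summit was 24 bp upstream of the start of the element.

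**Figure D4:**
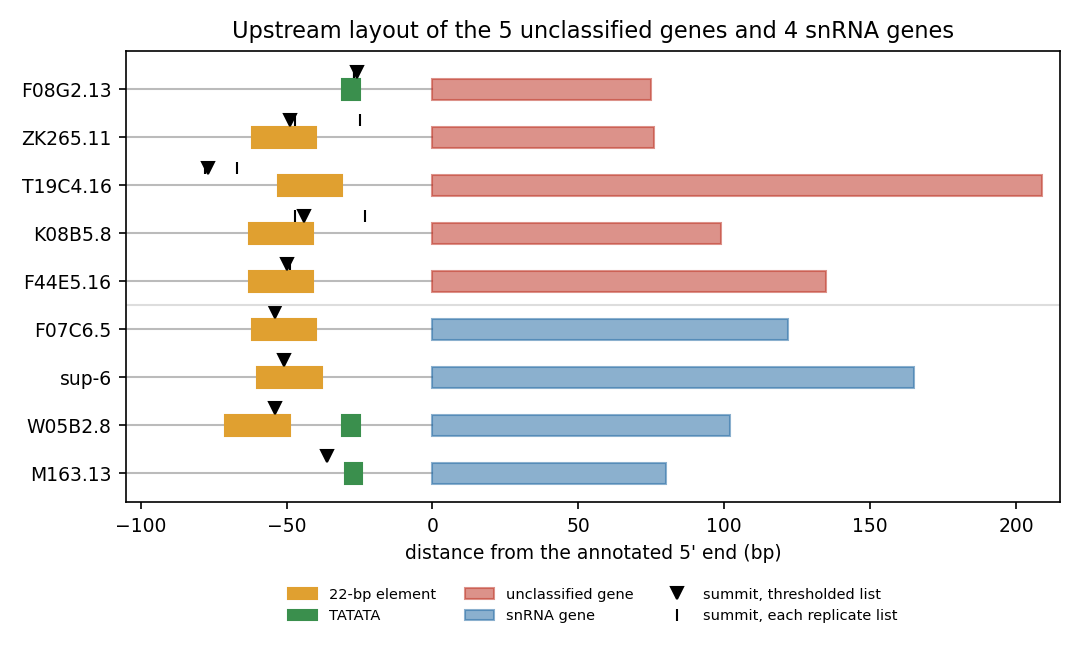
Layout of the 5 genes (red, above) and 4 snRNA genes (blue, below) by distance from the annotated 5′ end (x axis, bp). Orange boxes are the 22-bp element, green boxes TATATA, triangles the summit in the thresholded list and ticks the summits in each replicate list; the element starts 63 to 53 bp upstream in 4 of the 5 genes, and F08G2.13 and M163.13 have TATATA alone.

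Inside the element, K08B5.8 differed from the commonest snRNA base at 2 of the 22 positions, and T19C4.16, ZK265.11 and F44E5.16 differed at 4 each. The spaced pair of AACCCG, any 5 bases and TGTCGG, chosen after these sequences were seen and read on the sense strand alone, lay in the search window of these 4 genes. It lay in 5 of the 33 snRNA genes with a peak (15.2%), in 15 of 89 snoRNA genes with a peak (16.9%) and in 6 of 17 spliced leader RNA genes with a peak (35.3%). Of the 615 other noncoding RNA genes with a peak it lay in 5 (0.813%), and of 19971 protein-coding genes in 3 (0.0150%). The 5 were T19C4.11, K07C10.6, F36H12.65, lfor-1 and lfor-2. Of these, T19C4.11 shares the locus of T19C4.16, K07C10.6 shares its peak with the snoRNA gene K07C10.2, and F36H12.65 shares its peak with sls-2.19.

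Those 5 genes were also the only other noncoding RNA genes with a peak, outside the 5 studied, that scored above 20 bits, from 23.90 bits (K07C10.6) to 37.12 bits (lfor-1 and lfor-2). The summits at lfor-2 (rank 687) and lfor-1 (rank 1335) lay 69 and 128 bp inside the gene, unlike those of the 5 genes. A further 19 matched with 6.96 to 16.87 bits. They were F58G1.11, F45H7.13, K02B9.6, R31.7, W09D6.10, Y71A12B.31, T04C10.8, C46C2.11, F44E5.9, T28F4.7, F52D10.13, F38B7.16, F38B7.15, B0035.19, B0205.16, F45E4.15, C14F5.10, C05B10.20 and ZK867.14. In 3 of the 19 the summit was 80 to 30 bp upstream.

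F08G2.13 had no element match but belonged to a set of genes with related RNA sequence. Its closest annotated RNA gene at another locus was mir-2214 (chrIII:7278715-7278778), a microRNA gene with 47 identical bases in 59 aligned columns (79.7%). F08G2.12, 363 bp away on the same strand, had 49 identical bases in 64 columns (76.6%), and C18C4.17 had 26 in 30 (86.7%). The sequences follow, with the words GGTCCGG and AACTTGAC in capitals, as these words recur in the set.
F08G2.13: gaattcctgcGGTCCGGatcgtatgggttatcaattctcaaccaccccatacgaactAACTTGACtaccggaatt
F08G2.12: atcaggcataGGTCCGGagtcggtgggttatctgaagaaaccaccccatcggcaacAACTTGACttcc
mir-2214: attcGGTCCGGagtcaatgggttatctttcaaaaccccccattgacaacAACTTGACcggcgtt
C18C4.17: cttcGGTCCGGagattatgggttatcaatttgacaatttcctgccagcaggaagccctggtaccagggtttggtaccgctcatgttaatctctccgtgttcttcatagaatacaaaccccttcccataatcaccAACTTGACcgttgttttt
M163.13 (snRNA): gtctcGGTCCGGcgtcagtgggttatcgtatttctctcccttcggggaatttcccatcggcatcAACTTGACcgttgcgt
The genes other than F08G2.13 and mir-2214 are at chrII:13834887-13834954 for F08G2.12, chrV:5576222-5576373 for C18C4.17 and chrX:14476867-14476946 for M163.13. A search for both words in the 9270 RNA genes of at most 1000 bp, piRNA genes left out, found 11 genes. They were F08G2.13, F08G2.12, B0361.13, mir-2214, M163.13, M163.12, M163.15, W01D2.8, C18C4.17, CD4.18 and CD4.19. The annotation calls M163.13 an snRNA and mir-2214 a microRNA gene, and gives the other 9 no further class.

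The words were picked from alignments of F08G2.13 with its relatives when peaks at those relatives were already known, so the counts are a description. The 10 other genes all had a thresholded peak within 500 bp of the 5′ end, in 7 distinct peaks when the nearest is taken. Of the 9270 RNA genes searched, 9.58% had such a peak (888 genes). The nearest summit was at -26 bp for F08G2.13 (rank 3), -45 bp for mir-2214 (rank 17), -36 bp for M163.13 (rank 46) and -46 bp for W01D2.8 (rank 48). It was at -72 bp for F08G2.12 (rank 64), -40 bp for C18C4.17 (rank 65) and -49 bp for CD4.18 (rank 98). The peak of F08G2.12 lay 503 bp upstream of F08G2.13, just outside the 500-bp window, so each of these 2 neighbours had a summit of its own. B0361.13 and mir-2214 shared 1 peak, as did CD4.19 and CD4.18, while M163.12 and M163.15 had their nearest summit downstream of the 5′ end, at +11 and +360 bp (rank 201).

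TATATA began at -31 bp in F08G2.13 and 32 to 30 bp upstream in all 10 other genes. The word was added after the sequences were seen, and it occurred 45 to 15 bp upstream in 27.3% of the snRNA genes with a peak (9 of 33). It occurred there in 1.19% of other noncoding RNA genes of 50 to 300 bp outside the 5, and in 2.40% of protein-coding genes. None of the 5 genes had TATAA there, which 24.2% of the snRNA genes with a peak had. The share was 3.73% in other noncoding RNA genes and 5.85% in snoRNA genes, both of 50 to 300 bp, and 9.84% in protein-coding genes. Its absence from as few as 5 genes therefore says little. With the upstream sequences aligned on TATATA, 11 positions from 37 bp to 1 bp before it held the same base in at least 9 of the 10 other genes, and F08G2.13 had that base at 10 of the 11. These genes are related copies, some of them close neighbours, so their upstream sequences are not independent of one another. The upstream sequences of 3 of them follow, with TATATA in capitals.
F08G2.13: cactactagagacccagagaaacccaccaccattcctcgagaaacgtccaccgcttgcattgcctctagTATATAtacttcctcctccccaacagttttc
mir-2214: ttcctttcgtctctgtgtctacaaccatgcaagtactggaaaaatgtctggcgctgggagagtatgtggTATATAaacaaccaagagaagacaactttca
M163.13: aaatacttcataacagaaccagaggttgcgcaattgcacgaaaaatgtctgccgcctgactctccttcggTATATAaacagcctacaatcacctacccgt

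T19C4.16 resembled snoRNA genes. Of its 209 bases, 178 were identical, base for base, to the whole of T19C4.12, a snoRNA gene that starts 1220 bp upstream of it on the opposite strand. Those 178 bases are T19C4.11, in capitals here.
T19C4.16: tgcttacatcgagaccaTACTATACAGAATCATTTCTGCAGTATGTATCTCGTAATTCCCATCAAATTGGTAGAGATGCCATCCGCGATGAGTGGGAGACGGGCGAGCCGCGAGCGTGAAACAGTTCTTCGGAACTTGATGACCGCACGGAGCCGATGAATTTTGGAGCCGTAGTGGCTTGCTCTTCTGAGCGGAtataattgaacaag
The next closest were the snoRNA genes F43A11.8 (168 identical bases in 171 columns, 98.2%), F59C6.15 (91.8%), Y67A10A.14 (91.8%) and F25H2.15 (90.9%). All 5 of these snoRNA genes had a thresholded peak. The ranks were 177 for T19C4.12, 119 for F43A11.8, 14 for F59C6.15, 43 for Y67A10A.14 and 33 for F25H2.15, with summits from -75 to -46 bp. T19C4.16, at rank 84 and -77 bp, stood among them in rank. The copies align from base 18 to 25 of T19C4.16 on, near the start of T19C4.11, from which the summit was at -94 bp, farther upstream than at any of the 5 snoRNA genes. A weaker alignment, with Y46E12BL.9, covered 38 columns with 31 identical bases, and its summit lay at +93 bp (rank 821). Because of the copies, only 6.74% of the 32-base words in T19C4.16 occur once in the genome. The 200 bp at its summit held 98.2% such words. The length of the reads is not given. In the other 4 genes every 32-base word of the gene, of the 100 bp upstream and of the 200 bp at the summit occurred once.

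K08B5.8 resembled 2 microRNA genes and 1 snoRNA gene of the same chromosome. It shared 72 identical bases in 85 columns with mir-8196.1 (84.7%), 70 in 83 with the snoRNA gene T21F2.3 (84.3%) and 80 in 100 with mir-8196.2. The first pair follows, with identical aligned bases in capitals, at chrX:16564730-16564828 and chrX:2328994-2329124 (both on the plus strand).
K08B5.8: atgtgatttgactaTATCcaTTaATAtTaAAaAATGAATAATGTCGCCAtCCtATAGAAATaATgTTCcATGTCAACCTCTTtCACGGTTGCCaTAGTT
mir-8196.1: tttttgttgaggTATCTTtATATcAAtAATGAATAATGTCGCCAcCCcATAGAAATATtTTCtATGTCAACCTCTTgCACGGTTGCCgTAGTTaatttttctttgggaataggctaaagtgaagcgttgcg
The 100 bp upstream were alike as well, with 75 identical bases in 89 columns against mir-8196.1, 67 in 81 against T21F2.3 and 70 in 81 against mir-8196.2. Peaks lay at mir-8196.1 (rank 69, -58 bp) and mir-8196.2 (rank 311, -49 bp). T21F2.3 had no thresholded peak but a pooled region at rank 2818 (signal value 27.9, -62 bp), below the end of the list. K08B5.8, at rank 304 and -44 bp, was close in rank to mir-8196.2. Its nearest protein-coding gene, K08B5.1, lay 2154 bp away, and 2 further thresholded peaks lay 1217 bp (rank 1243) and 1816 bp (rank 187) downstream of its 5′ end.

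F44E5.16 resembled an snRNA gene near its 3′ end alone. The 15 bases AAATTTTGGAAAAGG, at chrII:11756885-11756899 on the plus strand, occurred in 4 of the 9270 RNA genes searched. They were F44E5.16, F56A12.11, F52D4.1 and the snRNA gene F56A12.5 (chrV:14361928-14362035, minus strand). The capitals below mark them.
F44E5.16: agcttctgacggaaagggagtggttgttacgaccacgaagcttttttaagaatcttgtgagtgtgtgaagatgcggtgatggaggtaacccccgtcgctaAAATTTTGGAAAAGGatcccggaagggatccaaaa
F56A12.5 (snRNA): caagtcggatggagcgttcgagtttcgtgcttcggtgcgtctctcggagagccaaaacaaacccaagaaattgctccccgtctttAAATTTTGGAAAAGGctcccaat
The local alignments covered 32 columns with F56A12.11 (31 identical), 42 with F52D4.1 (34 identical) and 31 with F56A12.5 (27 identical). Peaks at these relatives were weaker or placed otherwise than that of F44E5.16. F56A12.11 had a peak at +440 bp (rank 606), and the protein-coding gene Y49A3A.4 also started within 500 bp of that summit. F52D4.1 had a peak at -21 bp (rank 1790), and F56A12.5 had a pooled region at rank 5118 below the threshold. Upstream, the best alignment of F44E5.16 with any of the 3 had 10 identical bases in 11 columns. A second region at F44E5.16, at +154 bp and rank 2871 of the pooled list, was also below the threshold. The nearest gene, F44E5.4, lay 187 bp past its 3′ end.

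ZK265.11 had no close relative. Its best alignment, with B0393.11, covered 25 columns with 21 identical bases, and B0393.11 had no region in the pooled list within 500 bp. No other of the 5 genes had its pairing of TGATGA in the first 20 bases with CTGA in the last 20, the words of boxes C and D of C/D snoRNAs. The same pair of words occurred in 4.09% of annotated snoRNA genes of 50 to 300 bp (14 of 342), in 0.0679% of other noncoding RNA genes of that length (5 of 7365) and in none of the 99 snRNA genes. Nor did any other of the 5 lie in an exon of a protein-coding gene, and the summit of ZK265.11 was in that exon of ceh-8 as well.

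The other words searched on the sense strand, each in a single fixed form, did not set the 5 genes with snRNA genes. ATTTTTG, a form of the site that Sm proteins bind in spliceosomal snRNAs, lay in none of the 5 genes, in 72.7% of the snRNA genes with a peak (24 of 33) and in 5.11% of other noncoding RNA genes of 50 to 300 bp. Other forms of that site were not searched, so their absence from the 5 genes is not shown. The shorter ATTTTG stands in the sequences of F44E5.16 and T19C4.16 printed above. It was not counted in the other classes, and whether Sm proteins bind there was not tested. TTTT from 10 bp before to 20 bp after the 3′ end, as found where RNA polymerase III stops, was present in F08G2.13, T19C4.16 and K08B5.8. It was present in 30.3% of the snRNA genes with a peak, in 52.9% of the snoRNA genes of 50 to 300 bp and in 30.4% of the other noncoding RNA genes. ACA placed 3 bases before the 3′ end, as in H/ACA snoRNAs, was in none of the 5, in 17.0% of the snoRNA genes and in 1.74% of the other noncoding RNA genes. A word found or not found in these windows is a description of the sequence alone.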

How the data were processed

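ChIP-seq of eGFP-tagged SNPC-4 was analysed from lists of regions on ce11, which the authors deposited for 2 replicates of 1 group. The thresholded list was made by irreproducible discovery rate from both replicates, and the pooled and replicate lists hold 30000 regions each, background included, per the descriptions deposited with the files. A further input file is named there and was not analysed here. No source used here gives the aligner, peak caller or threshold. The signal value of a region is the authors' own, on the scale of its list, and was used only to rank within a list. The −log10 q-value, as deposited, was constant in the thresholded list and was not used to rank. Read counts are not given, so depth is unknown. The lists on ce10 were not used.

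Genes came from RefSeq's annotation of WBcel235, and no region ended beyond a chromosome end (0 in each list). A gene had a peak if a summit lay within 500 bp of its 5′ end, and the strongest was taken. The 22-bp element was fitted by expectation maximisation, with a step that moves all sites together by up to 12 bp, added after a check on simulated data showed that fits could settle out of phase. RNA genes were aligned locally with Biopython 1.88 (match 2, mismatch -3, gap opening -5, extension -2), and relatives below a score of 35 other than the best were left out, a limit set after the scores were seen. Python 3.11.15, numpy 2.4.6, pandas 2.3.3 and matplotlib 3.10.9 did the rest. Intervals are 95% Clopper-Pearson intervals from scipy 1.17.1 over genes and cover counting error only.

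With 1 group and genes chosen by their peaks, no test was made. The 5 genes, the word lists and the comparisons were chosen with earlier results of these data known. Named are the 5 genes and their neighbours, other unclassified genes with a peak and a match, the 5 strongest other unclassified genes, the closest relatives and the snRNA genes with the 3 highest and 3 lowest scores. The genes holding 2 words of F08G2.13 and the 3 strongest genes in the summit interval were named after their values were seen. Alternatives were other windows, the stronger 50% of the list, each replicate list, and other widths, scores and training sets of the element.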

Additional observations from a re-analysis of the deposited data

How the results depend on the processing

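All 5 genes had a peak under each alternative run. The alternatives were windows of 250 and 1000 bp, the stronger 50% of the list, each replicate list alone and overlap of whole intervals. The genes were picked with their ranks and summit positions known, so the choice fixed this outcome and nothing is read from it. The share of other noncoding RNA genes with a peak was 4.41% in the stronger 50% of the list, against 7.70%, as that list is shorter by construction. The median rank of the 5 genes was 84 in the thresholded list and 80 to 98 in the replicate lists, and their median summit was at -49 bp against -47 bp in both replicates. Of 20 ranks and summits of single genes in replicate lists, 10 differed from the thresholded list by more than 1 SD of the values in the 2 replicate lists. Some of these differences were very small. At F08G2.13 the 2 replicates gave equal values, so rank 4 against 3 and -27 against -26 bp counted. F44E5.16 likewise counted with -49 against -50 bp. The element matched upstream of 4 of the 5 genes under every alternative: fits with spliced leader RNA genes, widths of 18 and 26 bp, a stricter score, 200 bp at the summit on both strands, and identical windows entered once. Widths of 34 and 40 bp and a fit without the phase step, chosen after the data were seen, also gave 4. Without the phase step F44E5.16 scored 12.05 bits against the 9.27 needed. With the score that 0.1% of protein-coding windows reach, 0.335% of other noncoding RNA genes matched, against 1.89%, as a stricter score admits fewer genes. No paired analysis was possible because the study has 1 group. Depth is unknown, so what it limits cannot be stated.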
